A study of Mus musculus with 11 samples.

Results

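Il1b/Cxcl2 neutrophils are lung neutrophils in which transcripts of inflammatory genes equalled or outnumbered those of 3 genes of mature neutrophils. They were chosen by measured values in 11 droplet-based single-cell RNA sequencing libraries (10x Genomics, counting unique molecular identifiers, UMIs) of dissociated whole mouse lung. A barcode was taken as a cell if it held 1000 to 30000 UMIs with at most 14% from mitochondrial genes, and as a neutrophil if Csf3r and Cxcr2 together gave at least 3 UMIs and S100a8 and S100a9 together at least 10. Within a neutrophil, I is the sum of the UMIs of Il1b, Cxcl2, Ptgs2 and Slc7a11, and R the sum of those of Retnlg (resistin-like γ) and of the granule proteases Mmp8 and Mmp9. Cells with I of at least R were selected. They numbered 4738 of 6135 neutrophils (77.2%) and of 69267 passing cells (6.84%), and the remaining 1397 are called the other neutrophils. The selected cells were thus the majority of recovered neutrophils under this rule. That share depends on which genes stand in I and in R.

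The mice had 4 genotypes of p21, the cyclin-dependent kinase inhibitor gene Cdkn1a. Wild type mice (+/+; WT) gave 1 library, p21 heterozygotes (+/-; p21Het) 3, p21 mTert mice (+/mTert; p21mTert) 5 and p21 mTertCD mice (+/mTertCD; p21mTertCD) 2. All 10 libraries other than WT thus came from mice with a single unaltered p21 allele. mTert is the mouse gene of telomerase reverse transcriptase, Tert, and per the series title it was induced in p21-positive cells. The labels do not spell out CD. The age labels read 19 months for p21Het_1, 20 for p21mTert_1 and 18 for all others. Libraries are named by genotype and replicate number, as in p21mTert_2. WT, p21Het_1 and p21mTert_1 carry no replicate number in their titles, unlike the other 8 libraries, which include both of p21mTertCD. The labels name no treatment. Lungs were digested with enzymes before the cells were loaded. The labels do not say whether each library is 1 animal, so p-values measure the spread between libraries. The wild type group has 1 library and entered no test.

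Neutrophils are short-lived granulocytes that leave the bone marrow with granule proteins already made and then switch their transcription once they meet inflammatory signals. Engagement of Toll-like or interleukin-1 receptors activates NF-κB, which drives transcription of cytokines such as interleukin-1β and of chemokines that attract further neutrophils, together with its own inhibitors. In the lung a large pool of neutrophils is held in the capillaries and can move into the airspaces.

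Libraries held 165 to 1158 Il1b/Cxcl2 neutrophils, with medians of 2782 to 4354 UMIs per cell against 3169 to 5424 in the other neutrophils. Library totals were 42038434 to 85988955 UMIs. Of the selected cells' barcodes, 3 occurred in more than 1 library. Around the threshold, 41 cells had I lower than R by 1 UMI, 53 had equal values, of which 3 had none of either, and 48 had I higher by 1. Part of the selected barcodes also held RNA of other cells. Of them, 721 (8.64 to 27.6% by library) held 5 or more UMIs of 27 genes that define macrophages, monocytes, dendritic cells, B and T cells, endothelium, fibroblasts or epithelium, against 5.31 to 18.1% of the other neutrophils. Among selected barcodes above 10000 UMIs, 92.3 to 100% did. These are called mixed barcodes below, and the counts of listed genes that were higher or lower in all libraries are also given without them where they change. Scrublet scores marked 10.9% of the selected barcodes as likely doublets, which were kept. The unnumbered libraries WT, p21Het_1 and p21mTert_1 stood apart. Median depth of their selected cells was 2984, 3021.5 and 2782 UMIs, against 3677.5 to 4354 in the numbered libraries. Mixed barcodes were 21.4, 27.6 and 22.4% against 8.64 to 16.2%. Mean mitochondrial shares were 1.35, 1.97 and 1.44% against 0.572 to 0.863%. Genotype results among numbered libraries are given below.

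Neutrophil identity was checked on genes that are not in the rule. Mxd1, a transcriptional repressor of mature neutrophils, stood at 1516 to 2269.9 CPM (median 2108) in the selected cells, Hdc, the histamine-forming enzyme, at 1332 to 2475 CPM (median 1867), and G0s2, a lipolysis inhibitor, at 1937 to 3178 CPM (median 2747). For Mxd1 the B cell-like barcodes of the same libraries gave 17.7 to 33.1 CPM (median 25.6). Ly6g, the surface antigen used to stain mouse neutrophils, was low in the selected cells, at 10.8 to 67 CPM (median 25.4). The epithelial list of 6 genes summed to 2579 to 13649 CPM in the selected cells and 1389 to 11478 CPM in the other neutrophils. Within it Sftpc (surfactant protein C) stood at 909 to 9593 CPM (median 3616) in the selected cells and Scgb1a1, a secretory protein of club cells, at 826 to 5684 CPM (median 2090). Without mixed barcodes Scgb1a1 stood above Sftpc in 10 of 11 libraries, all but p21Het_2. Hemoglobin and other erythroid RNA varied most, from 75.6 to 16306 CPM, and its part in any result was not tested. CPM are counts per 1000000 UMIs of the summed cells of a library.

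Among the 4 genes of I, Il1b dominated. Il1b (chr2:129364570-129371139, minus strand, mm10), which encodes the cytokine interleukin-1β, made up 50.5% to 72.1% of I by library. Cxcl2 (chr5:90903871-90905938, plus strand), a chemokine that binds Cxcr2 on neutrophils themselves, made up 16.4% to 43.2%. Ptgs2 (chr1:150100031-150108227, plus strand), the inducible cyclooxygenase, and Slc7a11 (chr3:49892526-50443614, minus strand), the cystine transporter subunit, gave 3.13% to 7.74% and 2.45% to 4.19%. All 4 genes were seen together in 26.1% to 49.1% of the selected cells, and only 1 of them in 2.51% to 7.08%. R was mostly Retnlg, which made up 63.4% to 75.6% of it. Retnlg stood at 1566 to 3777 CPM (median 2293) in the Il1b/Cxcl2 neutrophils and 11702 to 16791 CPM (median 13495) in the other neutrophils, Mmp8 at 179.7 to 287 CPM (median 220.3) and 492 to 1391 CPM (median 839.8), and Mmp9 at 529 to 1032 CPM (median 780.0) and 932 to 1532 CPM (median 1316). The median selected cell of a library held 41 to 64 UMIs of I and 9 to 18 of R, and the median other neutrophil still held 21 to 30 of I beside 48.5 to 76 of R. All these values follow from the selection.

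The selected cells were 1.94 to 19.7% of passing cells by library. They held a median of 54.8% of all Il1b UMIs (35.2% to 76.2% by library), 50.0% of Cxcl2, 41.1% of Ptgs2 and 65.1% of Slc7a11, shares that the selection on these 4 genes raises. Acod1 (chr14:103046977-103056573, plus strand) encodes the enzyme that makes itaconate and is not in the rule, and 68.5% of its UMIs lay in the selected cells. The selected cells held 5.08% of the lung's Ccl3 and 4.47% of its Ccl4, chemokines that other cells also express. With every barcode thinned to 1000 UMIs, Acod1 was seen in a median of 39.7% of selected cells, 29.3% of other neutrophils, 0.19% of monocyte-like and 0% of B cell-like barcodes. B cell-like barcodes held at least 3 UMIs of Cd79a and Cd79b together and none of Csf3r and Cxcr2. That gate leaves out barcodes with free RNA of Csf3r or Cxcr2, so their share can understate the level that free RNA gives. Without thinning, Acod1 was seen in 60.5% of selected cells, 60.9% of the deeper other neutrophils and 0.345% of B cell-like barcodes. For Il1b the thinned shares were 98.8%, 94.4%, 40.4% and 1.59%, and for Ptgs2 46.2%, 27.8%, 3.21% and 0.315%. Acod1 was therefore seen in both neutrophil states and in few monocyte-like cells, whereas Il1b was seen in many of the latter.

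The selected cells were next set beside the other neutrophils of the same library. Both groups were cut from the same cells by 7 of their genes, so these differences are a description and carry no test. Of 6730 genes with a mean of at least 10 CPM, 13.9% were higher in the selected cells in all 11 libraries and 1.49% were lower in all. A gene was examined if it reached the minimum in either group, so 959 genes passed through the selected cells alone and 102 through the other neutrophils alone. Of the 5669 genes at the minimum in both, 14.2% were higher in all and 1.66% lower in all. The median difference over the 6730 genes was 0.33 on the log2(CPM + 1) scale, selected minus other, and single genes are read against that shift. Without mixed barcodes 612 of the 6730 genes were higher in all libraries and 68 lower in all, with a median of 0.28. Of the 5669 genes, 573 and 63 were (median 0.26). Counts of list genes without mixed barcodes are read against these. Below, A against B CPM are means over 11 libraries of the selected and the other neutrophils, followed in brackets by the median difference on that log2 scale and its range over the libraries. Acod1, listed with the selecting genes but not used in the rule, stood at 526 to 1215 CPM (median 717) in the Il1b/Cxcl2 neutrophils and 338 to 762 CPM (median 507) in the other neutrophils. Its difference was 0.54 (median of 11 libraries) and it was higher in the selected cells in all 11.

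Genes of the NF-κB circuit were higher almost as a block. Of 21 listed feedback and target genes, 19 were higher in the selected cells in all 11 libraries, with a median difference of 0.80. Nfkbia, the inhibitor that holds NF-κB in the cytoplasm and is itself its target, stood at 1049.7 to 2152 CPM (median 1588) in the Il1b/Cxcl2 neutrophils and 231 to 941 CPM (median 504) in the other neutrophils. The values did not overlap, and the difference was 1.65, 0.96 to 2.45 (median and range). Tnfaip3, the ubiquitin-editing brake on the pathway, averaged 207 against 101 CPM (1.03, 0.76 to 1.85), and Nfkbiz, a nuclear co-regulator, 689 against 385 CPM (0.80, 0.46 to 1.23). Icam1, an adhesion molecule, averaged 73.3 against 21.4 CPM (1.70, 0.87 to 3.35). The anti-apoptotic Bcl2a1b averaged 159 against 52.8 CPM (1.47, 0.99 to 2.52), although reads of the near-identical Bcl2a1 copies may be split between them. The exceptions were Relb, higher in 8 of 11 libraries, and Tnip1, higher in 10. Without mixed barcodes Bcl2a1d joined them, and 18 of 21 remained higher in all libraries, with a median of 0.95.

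The 250 bases before the start of 13 genes, of which Nfkbia, Icam1 and Tnfaip3 are on the NF-κB list, were searched on both strands for the κB decamer consensus, the DNA site that NF-κB dimers bind. The genes were the 4 of I, Acod1, Nfkbia, Ccl3, Ccrl2, Icam1, Csf1, Tnfaip3, Nlrp3 and Cxcl3, and they were chosen after their values were seen. The genes of I are higher by selection, and Cxcl3 was not higher in all libraries. RefSeq sequences on GRCm38.p6 were used. A match was present at 7 of 17 starts, in 7 genes, and at 7.25% of all 32851 starts in the table. Windows of up to 30 bases are shown for 6 matches, in the gene's orientation with the matching bases in capitals, so that each match can be read in its place. The likeness of the capitals is fixed by the search:

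Cxcl2: ctgagctcaGGGAATTTCCCtggtccccg

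Cxcl3: agctgcgggGGGAATTTCCCcagcccggg

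Nfkbia: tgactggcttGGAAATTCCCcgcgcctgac

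Ccrl2: actttcccccGGGGCTTCCCctgagcgggg

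Csf1: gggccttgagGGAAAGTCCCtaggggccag

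Nlrp3: ggcttctgcaGGGAACCCCCgggaattctg

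The Cxcl2 window lies at chr5:90903793-90903821 (plus strand) with its first match 97 bases before the start, and that of its neighbour and paralogue Cxcl3 at chr5:90786019-90786047 (plus strand), 73 bases before. In both, 2 matches overlap by all but 1 base. The Nfkbia window is at chr12:55492657-55492686 (minus strand), the Ccrl2 window at chr9:111057555-111057584 (minus strand), the Csf1 window at chr3:107760604-107760633 (minus strand) and the Nlrp3 window at chr11:59541373-59541402 (plus strand). The starts of Il1b, Ptgs2, Slc7a11 and Acod1 held no match to this consensus within 250 bases. TGANTCA, the AP-1 site, was found for 1 of the 13 genes, Tnfaip3, and for 6.75% of all starts. A match describes letters only, and binding was not measured.

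Secreted signals formed a second group. Of 17 listed chemokines and cytokines outside the rule, 13 reached the expression minimum and 8 were higher in the selected cells in all 11 libraries, with none lower in all. Cxcl1, Cxcl16 and Il1a reached the minimum through the selected cells alone, and of the 10 genes that reached it in both groups 5 were higher in all. Ccl3, a macrophage inflammatory protein, stood at 39.5 to 222 CPM (median 101) in the Il1b/Cxcl2 neutrophils and 4.94 to 61.5 CPM (median 13.9) in the other neutrophils, a difference of 2.34. Ccl4, its close relative, averaged 220.0 against 52.8 CPM (1.67, 0.36 to 4.37), Csf1, the macrophage growth factor, 272 against 88.2 CPM (1.64, 1.18 to 2.59), Tnf 76.4 against 39.5 CPM (0.81, 0.46 to 1.49) and Cxcl1, another Cxcr2 ligand, 15.3 against 1.85 CPM (3.01, 1.26 to 4.77). Ccl3 and Ccl4 are also abundant in other lung cells, and the part of RNA from those cells was not tested. Without mixed barcodes the differences of Ccl3 and Ccl4 were 3.16 and 2.62, higher in all 11 libraries. Of the whole list 7 of 13 were then higher in all, with Il1rn added and Cxcl16 and Il1a lost, and 6 of the 10. Few cells carried Ccl3 RNA: at 1000 UMIs it was seen in a median of 5.38% of selected cells against 0.236% of B cell-like barcodes. Il1rn, the interleukin-1 receptor antagonist, averaged 176 against 116 CPM and was higher in 10 of 11 libraries. Osm (oncostatin M) averaged 212 against 219 CPM and was higher in 4. Ccl6 averaged 1997 against 2592 CPM and was lower in 10 of 11.

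Of all 6730 genes examined 13.9% were higher in all libraries, with a median difference of 0.33. With all selected barcodes the interleukin-1 and inflammasome machinery lay close to these values. Of its 13 listed genes 2 were higher in all 11 libraries and none lower in all, with a median difference of 0.34. The 2 were Nlrp3, the inflammasome sensor, at 433 against 251 CPM (0.78, 0.28 to 1.45), and Il1a at 10.9 against 1.43 CPM (1.94, 0.27 to 4.99), which reached the minimum through the selected cells alone and without mixed barcodes was higher in 8 of 11. Of the 11 genes at the minimum in both groups 1 was higher in all, Nlrp3 (median 0.06). Without mixed barcodes 4 of 13 were higher in all (median 0.33), Nlrp3, Casp4, Il1rn and Il1rap, where 612 of the 6730 genes were. All 4 were among those 11 (median 0.26), where 573 of the 5669 genes were higher in all. Casp1, the protease that cleaves pro-interleukin-1β, averaged 29.5 against 29.2 CPM and was higher in 6 of 11 libraries, and Gsdmd, the pore through which it leaves, averaged 45.4 against 48.8 CPM and was higher in 5. The decoy receptor Il1r2 averaged 1331 against 1232 CPM. Immediate early genes, transcribed within minutes of a stimulus and also during tissue digestion, were higher in all libraries for 11 of 17 genes with a median of 0.51. Nr4a1, a nuclear receptor, averaged 1011 against 534 CPM (1.01, 0.61 to 1.59), and Dusp1, a MAP kinase phosphatase, averaged 2022 against 1257 CPM (0.72, 0.47 to 1.04). Fos averaged 1487 against 1313 CPM and was higher in 8 of 11. Without mixed barcodes 16 of 17 were higher in all 11.

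Of 17 trafficking and adhesion receptors 7 were higher in all libraries and none lower in all (median 0.23). That median lay below the 0.33 of all genes examined, of which 13.9% were higher in all. Without mixed barcodes the same 7 were joined by Ccr1, C5ar1 and Selplg, 10 of 17 (median 0.40). Siglecf reached the minimum through the selected cells alone. Cxcr4, the receptor that retains neutrophils in and returns them to the bone marrow, averaged 583 against 335 CPM (0.88, 0.43 to 1.56), Ccrl2, a chemerin-binding receptor, 355 against 106 CPM (1.86, 1.01 to 3.29), Itga4 321 against 168 CPM (0.98, 0.57 to 1.39) and Itgax 57.1 against 17.3 CPM (1.62, 1.03 to 2.77). Siglecf, a sialic acid receptor that marks long-lived neutrophils in some tumours and inflamed tissues, averaged 17 against 7.99 CPM (0.94, 0.10 to 4.08). The formyl peptide receptors Fpr1 and Fpr2 were lower in 10 of 11 each. Of 11 survival and death genes examined 6 were higher in all libraries, and they fell on both sides of function: the Bcl2a1 copies block apoptosis, whereas Bax (62.5 against 34.8 CPM), Bak1 (28.5 against 18.2 CPM) and Pmaip1 (80.8 against 32.2 CPM) promote it. Without mixed barcodes 5 of 11 were higher in all, and Bax and Bak1 were higher in 10 and 9 of 11 libraries. Cdkn1a, the gene altered in these mice, averaged 166 against 109 CPM and was higher in 10 of 11 (0.68, -0.38 to 1.35), and in all 11 without mixed barcodes.

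Genes of secondary and tertiary granules, made while neutrophils mature in the bone marrow, lay mostly in the opposite direction. Of 13 secondary and tertiary granule genes 5 were lower in the selected cells in all 11 libraries and none higher in all (median -0.85, or -0.68 over the 11 at the minimum in both groups). Of all genes examined 1.49% were lower in all. R itself holds the granule proteases Mmp8 and Mmp9, so the rule favours this direction. Without mixed barcodes 6 were lower in all (median -1.21). Ngp, neutrophilic granule protein, stood at 1.25 to 242 CPM (median 3.3) in the Il1b/Cxcl2 neutrophils and 21.9 to 11105 CPM (median 2144) in the other neutrophils. By library it was 30.6 CPM in WT, 2187, 11105 and 560.1 CPM in the p21Het libraries, 33.4, 4647, 36.8, 4736 and 3149 CPM in the p21mTert libraries, and 21.9 and 2144 CPM in p21mTertCD in the other neutrophils. It was thus far lower in WT, p21mTert_1, p21mTert_3 and p21mTertCD_1 than in the other 7 libraries. Among the selected cells p21mTertCD_2 alone exceeded 10 CPM. Lcn2, the iron-scavenging lipocalin 2, averaged 976 against 2862 CPM (-1.51, -2.41 to -0.67) and Wfdc21 698 against 2053 CPM (-1.47, -2.25 to -1.16). Camp and Ltf averaged 38.7 against 1629 CPM and 8.49 against 918 CPM, but were lower in 8 and 8 of 11 libraries only. Cd177, a surface partner of granule proteinase 3, averaged 31.5 against 171 CPM (-2.43, -3.62 to -0.47) and Ly6g 30.8 against 157 CPM (-2.43, -3.93 to -1.0), both lower in all libraries. Of the 6 primary granule genes Mpo, Elane, Prtn3, Ctsg and Ms4a3 did not reach the minimum of 10 CPM. The sixth, Cd63, a membrane protein of these granules, averaged 187 against 150.4 CPM and was higher in 9 of 11 libraries (0.22, -0.30 to 1.0). Metabolic lists did not move as blocks, where 13.9% of all genes examined were higher in all libraries and 1.49% lower in all. In the hypoxia and glycolysis list 1 of 19 genes was higher in all libraries, P4ha1, which reached the minimum through the selected cells alone, and 4 were lower in all: Slc2a3 (405 against 565 CPM), Hk3, Gapdh (779 against 1012 CPM) and Pkm. Without mixed barcodes 0 and 1 did so, the latter being Gapdh. In the NRF2 list, to which Slc7a11 belongs by function, 12 of 14 genes were examined. Of them 3 were higher in all, Sqstm1, Prdx1 and Ftl1, and 1 was lower in all, Txn1 (thioredoxin), at 1400.4 against 1624 CPM. Without mixed barcodes 3 were higher in all, Ftl1, Fth1 and Txnrd1, and none lower. Hmox1 averaged 65 against 47.9 CPM and was higher in 7 of 11.

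The levels of some leading genes moved with RNA of other cells. Ace and Adgre4, genes of non-classical monocytes, were among the 15 largest differences, at 125 against 44.6 CPM (1.93, 0.47 to 5.32) and 63.1 against 22.5 CPM (1.70, 0.18 to 3.75). Ace is 1 of the 27 genes that mark mixed barcodes, and without those barcodes the selected cells held 6.02 CPM of it and 1.77 CPM of Adgre4. Gngt2 stood at 262 CPM with them and 131 without, and Grk3 at 52 and 3.33 CPM, whereas Clec4n, a C-type lectin receptor for fungal mannans, stood at 85.7 and 96.2 CPM with and without them. The difference between states remained for Gngt2 without mixed barcodes, at 131 against 35.1 CPM (median 1.98), higher in all 11 libraries. Ace, Grk3 and Adgre4 then differed by 1.43, 1.30 and 0.87 and were higher in 10, 8 and 7 of 11. The monocyte list of 8 genes summed to 1192 to 2397 CPM in the selected cells and 628 to 1655 CPM in the other neutrophils. No gene of it was at 0 in any library's selected cells. Nr4a1, given above as an immediate early gene, is on this list and held a large part of both sums. Ly6c2, also on it, averaged 72 against 183 CPM. The sums are therefore not a measure of monocyte RNA alone. The remaining named genes that were higher (Arf2, Itgax, Ly6c1, Dusp2) differed by 1.51 to 1.62, and without mixed barcodes Ly6c1 was higher in 9 of 11. Those that were lower (Scrg1, Ly6c2, Atxn10, Slc27a4, Ckap4, Rflnb, Msra, 9830107B12Rik, Stx11) differed by -1.24 to -0.83.

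**Figure D1:**
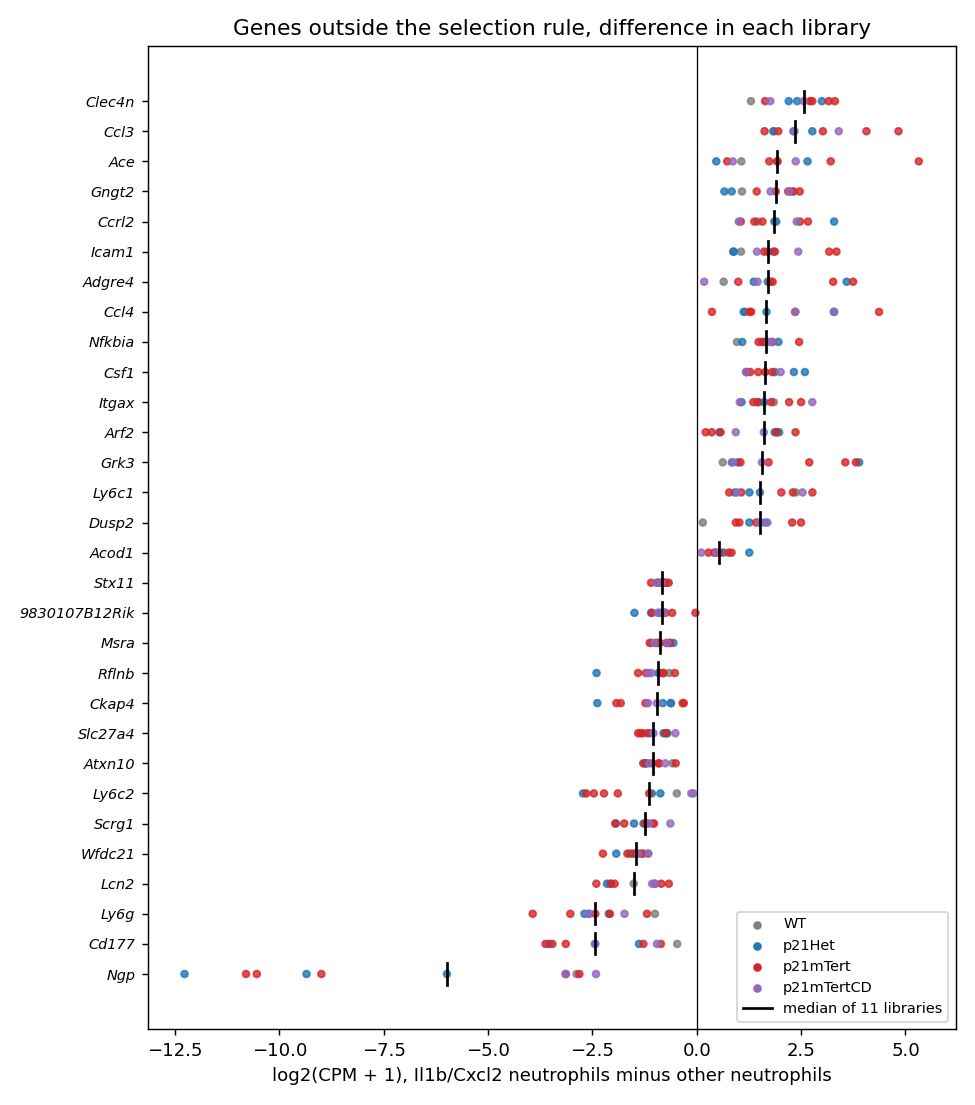
Difference in log2(CPM + 1), Il1b/Cxcl2 neutrophils minus other neutrophils, for 29 named genes and Acod1. Each point is 1 of 11 libraries, coloured by genotype, and the black bar is their median. All points of the upper 16 genes lie above 0 and all of the lower 14 below it, as the naming rule required for all but Acod1.

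The differences were graded within the neutrophils. When cells were binned by I / (I + R), Nfkbia had median levels of 214, 645, 1138, 1651 and 2218 CPM from the lowest bin (below 0.25) to the highest (0.9 to 1), and Acod1 292, 623, 641, 739.9 and 863 CPM. Both were lowest in the first bin and highest in the last. Ccl3 stood at 4.09, 17.7, 27.3, 52.3 and 234 CPM, with its largest step into the last bin. Cxcr4 stood at 204, 386, 437, 624 and 699.9 CPM. In the other direction Lcn2 had 4732, 1630.1, 1016, 709.9 and 473 CPM and Ngp 6494, 18.8, 6.14, 1.64 and 0.925 CPM. Ngp, Camp and Ltf were high in the first bin only, which held 409 cells (12 to 119 by library). In these medians over libraries the 3 transcripts were high in a median of 5.62% of neutrophils, those farthest from the selected cells. Single libraries differed, as Ngp was far lower in the other neutrophils of WT, p21mTert_1, p21mTert_3 and p21mTertCD_1. Lcn2 was lower in each bin than in the one before. The bins differed in depth, with medians of 4812 UMIs in the first and 3694 in the last.

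**Figure D2:**
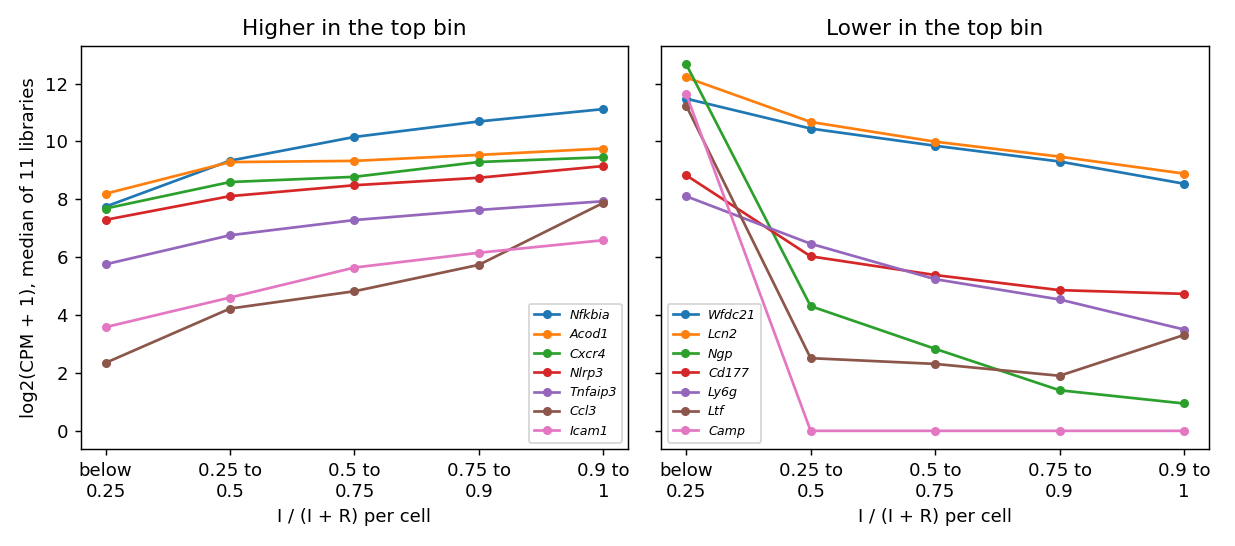
Level of 14 genes outside the rule in neutrophils binned by I / (I + R), as log2 of the median CPM of 11 libraries plus 1. The left panel shows genes that were highest in the last bin, from Nfkbia to Icam1, and the right panel genes that were lower there, where Ngp, Ltf and Camp are high in the first bin alone.

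The share of neutrophils in the Il1b/Cxcl2 state was compared between genotypes, which the design of inducing mTert in p21-positive cells implies. It was 75.3% in WT, 76.4%, 71.4% and 75.4% across p21Het, 83.9%, 89.7%, 79.4%, 80.6% and 77.4% across p21mTert, and 66.5% and 80.6% across p21mTertCD. Every p21mTert library exceeded every p21Het library, while the p21mTertCD libraries lay apart from each other. p21mTert averaged 82.2% ± 4.81 (SD, n = 5). p21Het averaged 74.4% ± 2.64 (SD, n = 3). p21mTertCD averaged 73.5% ± 9.99 (SD, n = 2). The difference of 7.77 percentage points between p21mTert and p21Het had an exact 2-sided permutation p of 0.0536 (0.321 after Benjamini-Hochberg adjustment over 6 share tests), where 0.0179 is the smallest p that 5 against 3 libraries allow. It did not pass. Among the numbered libraries the difference was 8.34 points (exact permutation p = 0.133), and the unnumbered libraries are 1 each of WT, p21Het and p21mTert. p21mTert minus p21mTertCD differed by 8.64 points (exact permutation p = 0.19, adjusted 0.571) and p21mTertCD minus p21Het by -0.877 (p = 0.9, adjusted 1 in the exact test, which cannot go below 0.1). With every neutrophil thinned to 1000 UMIs the p21mTert range of 78.3% to 90.5% overlapped the p21Het range of 76.6% to 79.8%. Without mixed barcodes the shares were 74.4% in WT, 74.1%, 71.9% and 74.8% across p21Het, 82.8%, 88.6%, 78.4%, 79.6% and 76.1% across p21mTert, and 65.3% and 78.8% across p21mTertCD, and p21mTert again did not overlap p21Het. Exact (Clopper-Pearson) 95% intervals of single libraries were as wide as 65.1% to 77.2% in p21Het_2 and cover counting error only.

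As a percentage of passing cells, neutrophils were 6.37% in WT, 7.16%, 2.71% and 26.2% across p21Het, 9.26%, 8.25%, 4.15%, 5.11% and 10.2% across p21mTert, and 13.6% and 7.56% across p21mTertCD. The library p21Het_3 stood apart with 1158 of the 4738 selected cells. The difference between p21mTert and p21Het was -4.62 points (exact permutation p = 0.554) and 2.46 points without p21Het_3. Shares of cells in dissociated tissue compare recovered cells and not numbers in the lung.

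**Figure D3:**
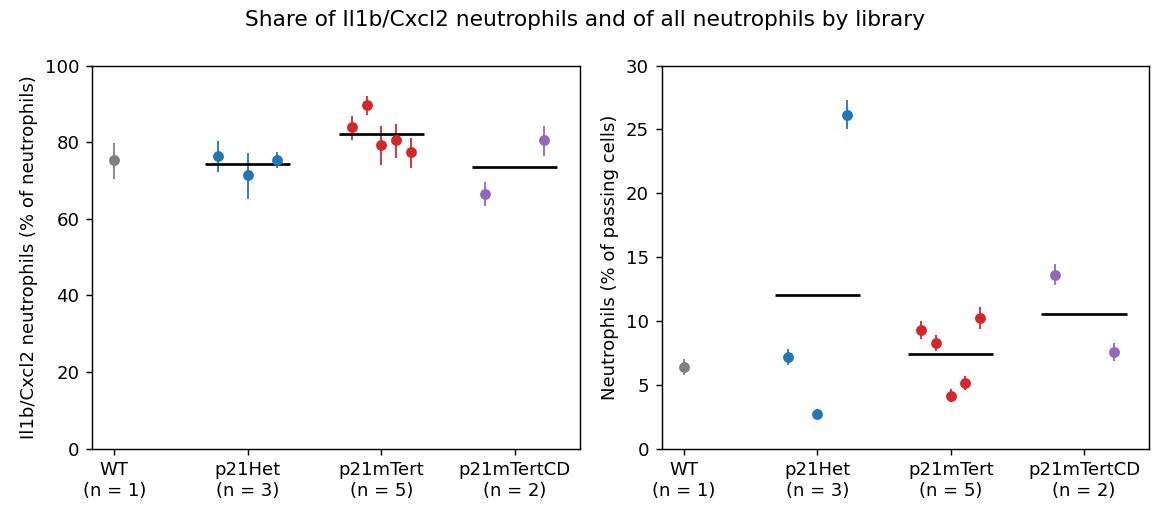
Left, Il1b/Cxcl2 neutrophils as a percentage of neutrophils. Right, neutrophils as a percentage of passing cells. Each point is 1 library with its exact 95% interval and the black line is the group mean. The p21mTert points lie above the p21Het points on the left, and p21Het_3 stands alone at 26.2% on the right.

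Gene levels within the Il1b/Cxcl2 neutrophils were compared between genotypes on UMIs summed per library. Fewer cells with a transcript and less RNA per cell cannot be told apart in such sums. The altered genes came first. Cdkn1a (chr17:29090976-29100727, plus strand) stood at 189 CPM in WT, 143, 195 and 181 CPM in the p21Het libraries, 137, 189.8, 149, 200.4 and 156 CPM in the p21mTert libraries, and 159 and 124 CPM in p21mTertCD. The groups overlapped, and the log2 fold change was -0.18 for p21mTert minus p21Het. It was 0.18 for p21mTert against p21mTertCD and -0.36 for p21mTertCD against p21Het, and no comparison called it. Tert RNA was near the limit of detection, with 0 UMIs in WT, 1, 0 and 0 across p21Het, 2, 17, 6, 3 and 5 across p21mTert and 8 and 4 in p21mTertCD. The 7 libraries with an mTert or mTertCD allele had 2 or more and the other 4 had 0 or 1. Whether these UMIs came from the altered allele or from the native Tert gene cannot be told apart. The Tert difference between p21mTert and p21Het was not called by edgeR (adjusted p = 0.567).

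Of the 4 genes of I and Acod1, Ptgs2 was the one whose p21mTert and p21Het values did not overlap, as held for 3.14% of all genes tested. Ptgs2 stood at 902 CPM in WT, 683, 477 and 551 CPM in the p21Het libraries, 1032, 884, 832, 1048 and 1059.8 CPM in the p21mTert libraries, and 565 and 753 CPM in p21mTertCD. Each p21mTert value exceeded each of p21Het and p21mTertCD, and WT lay within the p21mTert range. Its log2 fold change, p21mTert relative to p21Het, came to 0.68 (SE 0.146). The cells were selected on the level of Ptgs2, so this difference is read as a description only, and edgeR did not call it. Without mixed barcodes Ptgs2 stood at 1443 CPM in WT, 1220.4, 566 and 653 CPM in the p21Het libraries, 1587, 1132, 1012, 1243 and 1168 CPM in the p21mTert libraries, and 789.6 and 1049 CPM in p21mTertCD, and p21Het_1 and p21mTertCD_2 then lay within the p21mTert range (log2 fold change of 0.52, p21mTert minus p21Het). Il1b stood at 10120.5 CPM in WT, 7799, 7691 and 8436 CPM in the p21Het libraries, 9818, 7453, 8221, 9555 and 9866 CPM in the p21mTert libraries, and 6424 and 8198 CPM in p21mTertCD, and Cxcl2 at 2968 CPM in WT, 2179, 6575 and 4687 CPM in the p21Het libraries, 2767, 4768, 3306, 3936 and 2241 CPM in the p21mTert libraries, and 3751 and 2729 CPM in p21mTertCD. Cxcl2 spread widely among the p21Het libraries, from the lowest to the highest of all 11. Slc7a11 stood at 546 CPM in WT, 431, 477 and 493 CPM in the p21Het libraries, 595, 419.5, 384, 481 and 521 CPM in the p21mTert libraries, and 269.7 and 424 CPM in p21mTertCD, and Acod1 at 599 CPM in WT, 526, 1215 and 1120.4 CPM in the p21Het libraries, 610.5, 1060.3, 708, 672 and 717 CPM in the p21mTert libraries, and 803 and 755 CPM in p21mTertCD. For these 4 genes p21mTert and p21Het overlapped. Their log2 fold changes, p21mTert minus p21Het, were 0.05 for Il1b, -0.59 for Cxcl2, -0.09 for Slc7a11 and -0.51 for Acod1 (SE 0.179 to 0.387). Since the selection sets I against R, the levels of its 7 genes are conditioned by it in every genotype.

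**Figure D4:**
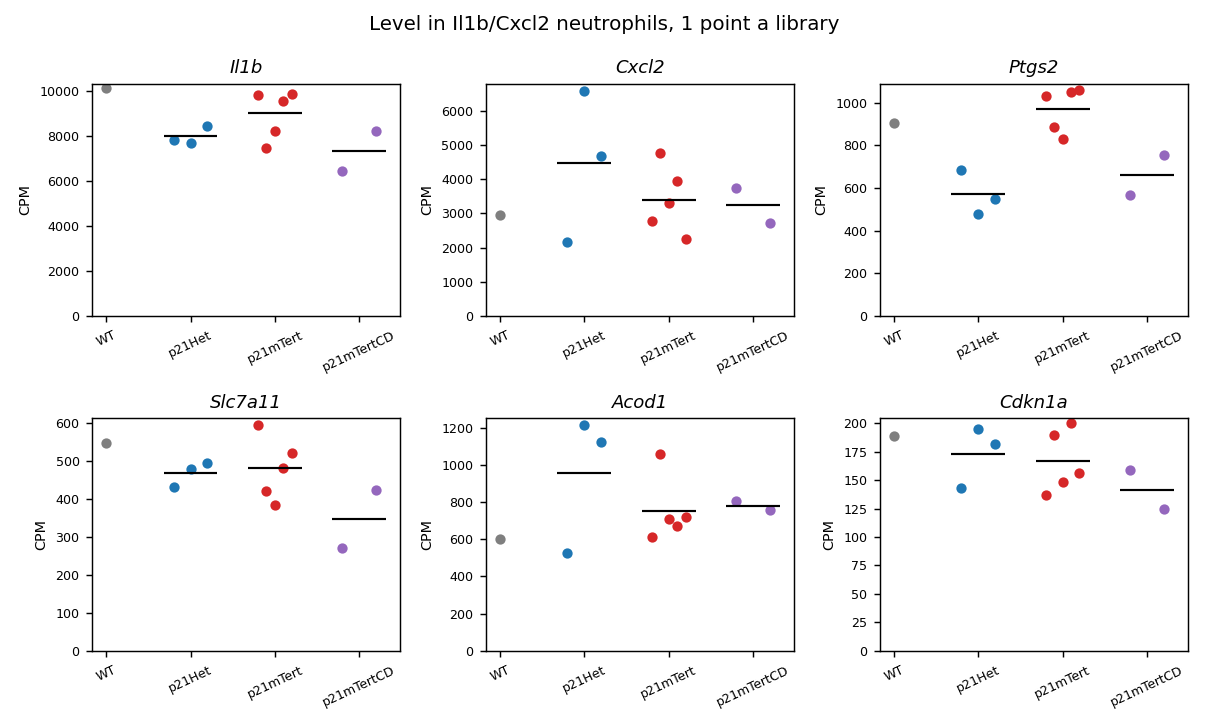
CPM of the 4 genes of I, of Acod1 and of Cdkn1a in the Il1b/Cxcl2 neutrophils, 1 point a library, with the group mean as a black line. Ptgs2, a gene of the rule, is the panel in which the p21mTert points lie above those of p21Het and p21mTertCD. Without mixed barcodes they overlap.

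Between p21mTert and p21Het, 0 of 9742 genes (0%) passed an adjusted p of 0.05 in edgeR's quasi-likelihood test. At an unadjusted p under 0.05 there were 572, and 3.14% of genes had library values that did not overlap. DESeq2 called 18 genes (17 higher in p21mTert). Without p21Het_1, edgeR called 88, and among the libraries with a replicate number in the title 44. The 3 genes of smallest p were Gm42031, a predicted gene (log2 fold change 3.64), Mgl2, a lectin of dendritic cells and macrophages (-3.72), and Ctla2a (1.17), each with an adjusted p of 0.12. Without mixed barcodes Ctla2a had a log2 fold change of 0.02 (edgeR adjusted p = 1.0), at 8.78, 23.8 and 14.3 CPM in the p21Het libraries against 11 to 21.7 CPM in the p21mTert libraries. With all selected barcodes it stood at 62.5, 23.7 and 53 CPM in the p21Het libraries and 96.5 to 127 CPM in the p21mTert libraries. Gm42031 stood at 4.12 CPM in WT, 1.77, 1.25 and 3.59 CPM in the p21Het libraries, 73.3, 43.2, 18.7, 31.6 and 18.2 CPM in the p21mTert libraries, and 2.31 and 1.59 CPM in p21mTertCD. Without mixed barcodes its p21mTert mean was 13.1 CPM, against 37.0 CPM with all selected barcodes. Mgl2 rested on 4 UMIs in p21mTert and 60 in p21Het. No gene of the NF-κB list was called by edgeR, 15 of 21 having a positive fold change (median 0.14, against -0.00304 for all genes), and 15 of 19 hypoxia and glycolysis genes had a negative one (median -0.32), also without a call. On data simulated for this comparison with 200 changed genes the same test recovered 31% of 2-fold and 81.5% of 4-fold changes. It also called 6 and 10 unchanged genes. Simulated libraries varied independently around 1 mean per gene, so the unnumbered libraries were not set apart in them. Whether p21mTert altered the selected cells differently from the other neutrophils was tested as an interaction, which called 0 of 8467 genes (0%), with 435 at an unadjusted p under 0.05 in edgeR.

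With all selected barcodes, edgeR called 3 genes between genotypes, Mgl2, Ms4a4b and Ifi27l2a, all in comparisons with p21mTertCD. Ifi27l2a, a small mitochondrial protein gene that interferons induce, stood at 383 CPM in WT, 360.1, 142 and 325 CPM in the p21Het libraries, 406, 571, 346, 354 and 389.6 CPM in the p21mTert libraries, and 1753 and 1037 CPM in p21mTertCD. Both p21mTertCD libraries lay above all 9 others, and p21mTertCD_1 was the higher. It was called higher in p21mTertCD than in p21Het (log2 fold change 2.34, SE 0.331, edgeR adjusted p = 0.047), 1 of 2 genes called (0.0205%). This call was fragile. Leaving out any 1 library other than p21mTertCD_2 gave adjusted p-values of 0.0597 to 0.305, and the numbered libraries alone gave 0.077 (log2 fold change 2.38). Without mixed barcodes it was 2.8 (adjusted p = 3.91e-04). Where a p21mTertCD library is left out, here and below, the fit assumes that the remaining one varies like the other groups. Isg15, a ubiquitin-like protein, stood at 216 CPM in WT, 149.7, 242 and 241 CPM in the p21Het libraries, 246, 338, 206, 307 and 439.9 CPM in the p21mTert libraries, and 643 and 479.7 CPM in p21mTertCD. Rtp4, an inhibitor of viral replication, stood at 60.2 CPM in WT, 33.6, 40.0 and 60.8 CPM in the p21Het libraries, 62.5, 84.6, 43, 67.3 and 94.9 CPM in the p21mTert libraries, and 213 and 176 CPM in p21mTertCD. For both genes, too, the p21mTertCD values were the highest of the series. Ifit1, which binds viral RNA caps, stood at 26.4 CPM in WT, 25.3, 16.2 and 18.1 CPM in the p21Het libraries, 23, 41.4, 6.61, 29.9 and 58.6 CPM in the p21mTert libraries, and 148 and 48.1 CPM in p21mTertCD, so that p21mTertCD_2 lay below p21mTert_5. Of 14 interferon-stimulated genes on the list 13 had a positive fold change in p21mTertCD over p21Het (median 1.02), 9 without overlap of library values (12.9% of all genes tested) and 8 at an unadjusted p under 0.05. In p21mTert against p21mTertCD 14 of 14 had a negative one (median -1.09), 8 without overlap (11.8% of all genes) and 12 at an unadjusted p under 0.05. In p21mTert over p21Het 7 of 14 had a positive one (median 0.01), none without overlap. edgeR called none of the 14 in these comparisons. The comparisons share libraries pairwise.

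Levels of markers of other cells also differed between the libraries of these groups, without a call when all selected barcodes were used. In p21mTertCD over p21Het, 5 of 6 T and NK cell genes had a positive fold change (median 2.35), 5 without overlap, and 5 of 7 endothelial and stromal genes (median 2.72), 4 without overlap, where 12.9% of all genes tested did not overlap. These medians were above that of the interferon list. Macrophage genes gave 7 of 10 positive (median 1.64), and all 5 erythroid genes were negative (median -2.65). The 7 T and NK cell genes summed to 75.4, 32.5 and 49.2 CPM in the p21Het libraries, 246.6, 143, 111, 83.1 and 51.4 CPM in the p21mTert libraries, and 384 and 124 CPM in p21mTertCD. The endothelial and stromal genes summed to 272, 56.2 and 115 CPM in the p21Het libraries, 322, 382, 360.1, 734 and 333 CPM in the p21mTert libraries, and 126 and 545 CPM in p21mTertCD. Both lists also had positive fold changes in p21mTert over p21Het, 6 of 6 (median 1.25) and 7 of 7 (median 1.55). All 5 erythroid genes (median -2.16) and all 5 dendritic cell genes tested (median -0.36) were negative in that comparison. In p21mTert over p21mTertCD, 5 of 6 T and NK cell genes (median -1.21), 4 of 7 endothelial and stromal genes (median -1.30), 7 of 10 macrophage genes (median -1.69) and 4 of 5 dendritic cell genes (median -0.93) had a negative fold change, and all 5 erythroid genes a positive one (median 0.66). Of the T and NK cell genes Klrb1c was at 0 in both p21mTertCD libraries and in p21Het_2, where Gzma was too. Col1a2 and Col3a1 were at 0 in p21Het_2. With all selected barcodes edgeR called no gene of these lists. Without mixed barcodes 1 T and NK cell gene (0.12) and 3 endothelial and stromal genes (median 0.07) were left to test in p21mTertCD over p21Het, none without overlap (13.3% of all genes). The erythroid list had a median of -2.17 there. In p21mTert against p21mTertCD, 2 of 8 monocyte genes were called lower without mixed barcodes. They were Ccr2 (log2 fold change -2.48, edgeR adjusted p = 0.0239) and F13a1 (-3.70, adjusted p = 0.0454). Without mixed barcodes neither Mgl2 nor Ms4a4b was among the genes called. Beyond leaving those barcodes out, the part of other cells in the interferon difference and in the Mgl2 and Ms4a4b calls was not tested.

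**Figure D5:**
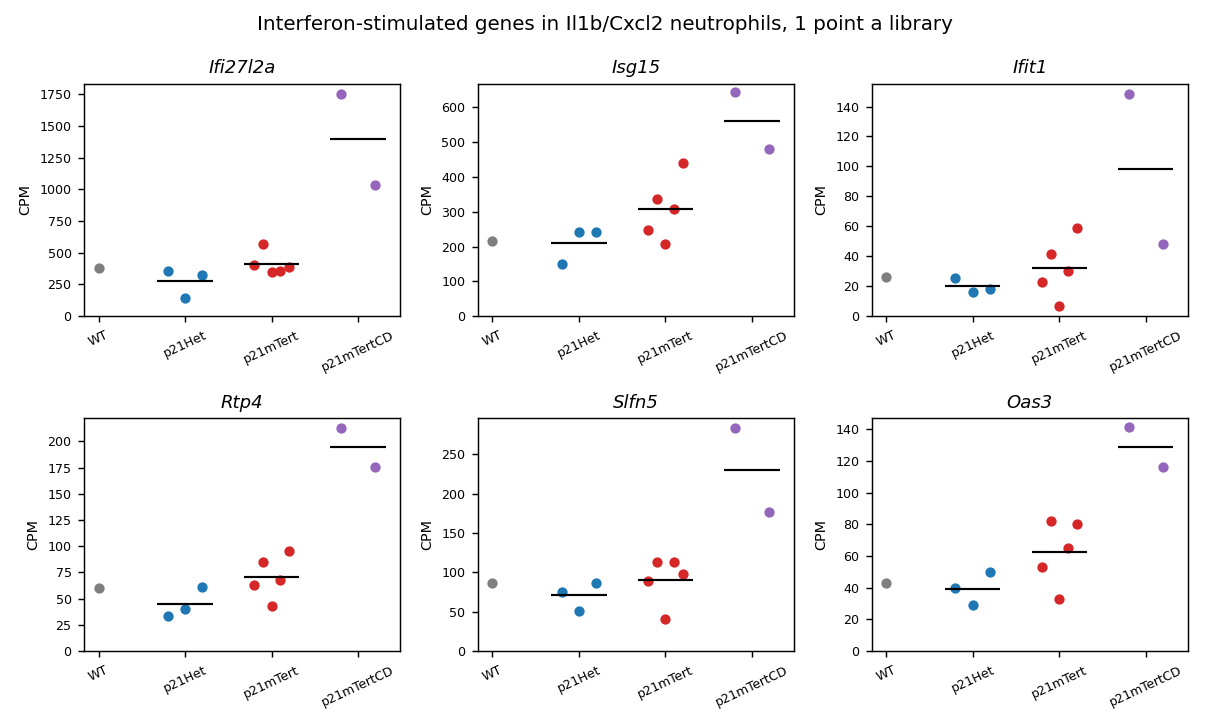
CPM of 6 interferon-stimulated genes in the Il1b/Cxcl2 neutrophils, 1 point a library, with the group mean as a black line. The 2 p21mTertCD points are the highest in each panel except that of Ifit1, where p21mTert_5 lies above p21mTertCD_2.

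Mixed barcodes were then left out, a choice made after the data were seen. With 6221 genes tested, edgeR then called 16 in p21mTertCD against p21Het (0.257%), all higher, and 29 in p21mTert against p21mTertCD (0.466%), 28 of them lower in p21mTert. It called 0 in p21mTert against p21Het (0%; 491 at an unadjusted p under 0.05) and 0 for the interaction (161 at an unadjusted p under 0.05). Called in both p21mTertCD comparisons were Ifi27l2a, Rtp4, Igtp, Slfn5, Slfn8, Oasl2, Oas3 and Ddx60, beside the platelet genes Pf4, Ppbp, Itga2b and Nrgn. The former are known to be induced by interferons but are not on the list of 14, and were grouped so after the calls were seen. Among genes called in p21mTert against p21mTertCD alone were Ccr2 and F13a1 of the monocyte list. Slfn5 stood at 97.5 CPM in WT, 38, 57.8 and 83 CPM in the p21Het libraries, 85.7, 103, 23.8, 71.4 and 97.5 CPM in the p21mTert libraries, and 359 and 205 CPM in p21mTertCD in these barcodes, and its log2 fold change was 2.16 over p21Het (SE 0.397, edgeR adjusted p = 0.0251). Oas3, which senses double-stranded RNA, stood at 80.7 CPM in WT, 49.8, 34 and 57.7 CPM in the p21Het libraries, 79.8, 101, 42.8, 72.6 and 100.5 CPM in the p21mTert libraries, and 175 and 169.7 CPM in p21mTertCD, with a log2 fold change of 1.81 (SE 0.264; edgeR adjusted p = 0.00868). For both genes the p21mTertCD libraries lay above the rest. Of the 14 listed genes 2 were called against p21Het, Isg15 and Ifit1, with log2 fold changes of 1.52 and 2.93, and 1 was called in p21mTert against p21mTertCD, Oasl1 (-1.33, edgeR adjusted p = 0.0401). Irf9, which is not on the list, is a subunit of the factor that type I interferon activates and was called in that comparison too (-1.11, adjusted p = 0.0302). Of the 14 listed genes 12 and 10 then had no overlap of library values, against 13.3% and 11.6% of all genes tested, with medians of 1.30 and -1.28. In p21mTert over p21Het 0 of the 14 had no overlap (4.24% of all genes tested), with a median of 0.13. These calls leaned on single libraries. Without p21mTertCD_1 they numbered 1 and 2, and without p21mTertCD_2 33 and 40. Without p21Het_1 the count against p21Het was 2 and without p21Het_3 7.

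The higher level of interferon-stimulated RNA in the p21mTertCD libraries was spread over many cells. Of the Il1b/Cxcl2 neutrophils, the share with at least 3 UMIs of Ifit1, Ifit3, Isg15 and Rsad2 together was 17.6% in WT, 12.9%, 12.7% and 17.9% across p21Het, 15.3%, 28.2%, 15.9%, 22.1% and 31.4% across p21mTert, and 49.9% and 43.7% across p21mTertCD. The other neutrophils gave 14% in WT, 16.2%, 15.2% and 15.6% across p21Het, 10.8%, 25%, 18.5%, 22.6% and 30.3% across p21mTert, and 44.1% and 35.4% across p21mTertCD, so that both states showed it. With every cell thinned to 1000 UMIs, Isg15 was seen in 14.5% of selected cells in WT, 13.5%, 12.1% and 17.3% across p21Het, 19.3%, 24.1%, 15.9%, 19% and 27.3% across p21mTert, and 36.4% and 36.1% in p21mTertCD. In B cell-like barcodes the thinned share of Isg15 was 0.729%, 1.57% and 1.56% across p21Het and 1.13% and 1.13% in p21mTertCD. For Ifi27l2a the thinned share of selected cells was 13.4% in WT, 13.5%, 6.67% and 12.4% across p21Het, 18.4%, 21.9%, 13%, 12% and 17.7% across p21mTert, and 49.4% and 33.7% in p21mTertCD. In B cell-like barcodes it was 14.5%, then 18.4%, 12.4% and 24.5%, then 15.3%, 24.1%, 18.5%, 22.4% and 21.4%, and 23.7% and 28.5%, in the same order of libraries. The selected cells exceeded the B cell-like barcodes in both p21mTertCD libraries and in p21mTert_1, and lay below them in the other 8. Whether B cell-like barcodes hold Ifi27l2a RNA of their own was not tested. Median depth of the selected cells in the p21mTertCD libraries was 3739 and 4027 UMIs, within the range of all libraries. In monocyte-like barcodes of the same libraries Isg15 stood at 76.9 CPM in WT, 79.2, 31.8 and 68.5 CPM in the p21Het libraries, 129, 123, 54.4, 82 and 87.8 CPM in the p21mTert libraries, and 221 and 212 CPM in p21mTertCD, and the p21mTertCD values were again the highest. In B cell-like barcodes Isg15 stood at 14.2, 11.6 and 22.2 CPM in p21Het and 20.1 and 13.7 CPM in p21mTertCD, which overlapped. Few barcodes held 2 or more UMIs of the platelet genes Pf4, Ppbp and Itga2b. They were 4 of 593 selected barcodes in p21mTertCD_1 (0.675%) and 1 of 341 in p21mTertCD_2 (0.293%). The other libraries had 0 to 4 such barcodes, with the highest share, 1.21%, in p21Het_2. How much of the platelet RNA lay in these barcodes was not tested.

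The promoters of the listed interferon genes were searched in the same way for the ISRE core, which is GAAA repeated after any 2 bases and lies in the element bound by interferon-activated factors. It was present at 5 of 13 starts of the 12 listed genes in the table and at 2.98% of all starts. Windows are shown for a listed gene, Isg15, for Ifit1, and for Oas3 and Igtp, which were called without mixed barcodes. On the gene's own strand the core can read as its reverse complement, as in Ifit1:

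Isg15: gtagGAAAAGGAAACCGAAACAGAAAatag

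Ifit1: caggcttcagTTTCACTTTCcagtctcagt

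Oas3: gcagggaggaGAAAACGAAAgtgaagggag

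Igtp: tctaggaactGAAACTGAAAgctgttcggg

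They lie at chr4:156200871-156200900 (minus strand), chr19:34640775-34640804 (plus strand), chr5:120777715-120777744 (minus strand) and chr11:58199512-58199541 (plus strand) on GRCm38.p6. The capitals in Isg15 join 3 overlapping matches.

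Of the other 2 genes called with all selected barcodes, Ms4a4b, a membrane protein gene of T cells and monocytes, stood at 61.9 CPM in WT, 33.6, 23.7 and 25.6 CPM in the p21Het libraries, 63, 27.6, 33, 37.4 and 27.5 CPM in the p21mTert libraries, and 147 and 98.4 CPM in p21mTertCD. It was called higher in p21mTertCD than in p21Het (log2 fold change 2.13, SE 0.296, edgeR adjusted p = 0.047) and lower in p21mTert than in p21mTertCD (-1.78, adjusted p = 0.0489). Mgl2 was lower in p21mTert than in p21mTertCD (-5.02, adjusted p = 0.0126). These were 2 of 9742 genes (0.0205%) in that comparison. Without mixed barcodes edgeR called neither Ms4a4b nor Mgl2 in either p21mTertCD comparison. With Scrublet-marked doublets left out, neither comparison called any gene in edgeR (306 and 247 at an unadjusted p under 0.05), whereas DESeq2 on all barcodes called 35 and 16.

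The following lists showed no gene called by edgeR between genotypes. Of the NF-κB list, 19 of 21 had a positive fold change in p21mTert over p21mTertCD (median 0.20) and 8 of 21 in p21mTertCD over p21Het (median -0.08). Immediate early genes gave 11, 15 and 4 of 17 with a positive fold change in p21mTert over p21Het, p21mTert over p21mTertCD and p21mTertCD over p21Het, with medians of 0.10, 0.21 and -0.16. Of 12 secondary and tertiary granule genes tested, 9 had a negative fold change in p21mTert over p21Het (median -0.44), 1 of the 12 without overlap (3.14% of all genes tested). Of 16 chemokine and cytokine genes tested, 8 had a positive one (median 0.02). The p53 and senescence list, relevant to the altered p21 locus, had 3 of 9 genes with a positive fold change in that comparison (median -0.08) and 5 of 9 in p21mTertCD over p21Het (median 0.04). These comparisons share libraries pairwise, so their counts are not independent.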

How the data were processed

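Cell Ranger counts of 11 lung libraries on mm10 were used, per the submitters' processing notes. The labels and the file headers give different versions, so none is stated here. The deposited files hold raw UMI counts of 31053 genes per barcode, and of their 81983 barcodes 69267 met the UMI and mitochondrial limits, which are those in the series' design text. Members, gene lists and tests were chosen with earlier results of these data known. UMIs of the selected cells were summed per library and analysed in edgeR 4.0.16 (R 4.3.3) by its quasi-likelihood test on genotype in the 10 replicated libraries after filterByExpr and TMM scaling, with Benjamini-Hochberg adjustment over all genes. DESeq2 1.42.0 was an alternative. Shares were tested with 2-sided exact permutation tests over libraries. Differences between states are medians of log2(CPM + 1) per library. The test was checked on simulated data. Doublet scores were from Scrublet in scanpy 1.11.5; barcodes of the highest scores, 0.8% per 1000 barcodes, were marked because its own thresholds gave 0 to 3.59%. Barcodes were thinned to 1000 UMIs where shares of cells are compared. Genes were named by rule: the selecting genes, Acod1, Cdkn1a, Tert, up to 15 genes per direction between states with at least 50 CPM and 1 direction in all libraries, called genes (or the 3 of smallest p) per genotype comparison, and list members. Promoters are RefSeq's and gene positions GENCODE M21's. Libraries were not treated as paired by replicate number. Some genes that the rule names are not reported here.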

Additional observations from a re-analysis of the deposited data

Results flagged for a closer look

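In the group of 5 p21mTert libraries, 21 values were examined for a library set apart from the rest (the 2 shares and the named genes), and 4 had one, where chance gives about 1 in 20. Acod1 in the Il1b/Cxcl2 neutrophils was 1060.3 CPM in p21mTert_2, against 610.5 to 717 CPM in the other 4 libraries. Ifi27l2a in the Il1b/Cxcl2 neutrophils was 571 CPM in p21mTert_2, against 346 to 406 CPM in the other 4 libraries. Mmp9 in the Il1b/Cxcl2 neutrophils was 1032 CPM in p21mTert_5, against 686 to 780.0 CPM in the other 4 libraries. Ms4a4b in the Il1b/Cxcl2 neutrophils was 63 CPM in p21mTert_1, against 27.5 to 37.4 CPM in the other 4 libraries. Their causes were not tested.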

How the results depend on the processing

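Of the share comparisons, the sign held in every alternative for p21mTert minus p21Het and p21mTert minus p21mTertCD of the member share and p21mTert minus p21mTertCD of the neutrophil share. The member share of p21mTert minus p21Het passed an unadjusted p of 0.05 with doublets left out (8.43 points, exact permutation p = 0.0357) and without neutrophils above 10000 UMIs, added after seeing the data (7.4, p = 0.0357). With single libraries left out it ranged over 5.89 to 8.97 points. The member share of p21mTertCD minus p21Het was 0.113 among numbered libraries and -7.94 to 6.19 with 1 library left out. The neutrophil share ranged over -9.27 to 2.46 (p21mTert minus p21Het) and -6.09 to 5.65 (p21mTertCD minus p21Het), turning sign without p21Het_3 (2.46 and 5.65) and, for the latter, without p21mTertCD_2 (1.59). The cause was not tested.

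For p21mTert minus p21Het the count of called genes, 0, became 145 without a filter on low counts, 44 among numbered libraries, 16 with the replicate block and 18 with DESeq2, and ranged over 0 to 88 with 1 library left out (0 to 60 without mixed barcodes). For p21mTert minus p21mTertCD the count of called genes, 2, became 294 without a filter on low counts, 16 among numbered libraries, 7 with I strictly above R, 0 with doublets left out, 35 with DESeq2 and 29 without mixed barcodes, and ranged over 1 to 26 with 1 library left out (2 to 40 without mixed barcodes). For p21mTertCD minus p21Het the count of called genes, 2, became 239 without a filter on low counts, 0 with only both groups fitted, 0 with doublets left out, 16 with DESeq2 and 16 without mixed barcodes, and ranged over 0 to 23 with 1 library left out (1 to 33 without mixed barcodes). For the interaction the count of called genes, 0, became 132 without a filter on low counts and 13 among numbered libraries, and ranged over 0 to 6 with 1 library left out. The replicate block compares numbered p21mTert and p21Het libraries. Numbers are shared by 2 pairs, whose deviations from group means correlated at 0.101 and -0.0209 over 9742 genes. The deviations of the 2 numbered p21Het libraries mirror each other, so these correlations cannot decide whether a shared number pairs libraries. For both p21mTertCD comparisons the block could not be fitted, because only 1 number is shared. Ctla2a in p21mTert minus p21Het turned to -0.18 without mixed barcodes and p21Het_1, and -0.088 without those and p21Het_3. Without mixed barcodes p21mTert minus p21mTertCD gave 36 called genes without p21Het_1 and 25 without p21Het_3. Precision is limited by 165 selected cells in p21Het_2 and by 2 libraries of p21mTertCD.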
